A study of Mus musculus with 8 samples.

Results

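The receptors described here are 8 members of the tumor necrosis factor (TNF) receptor superfamily, namely *Tnfrsf8* (CD30), *Tnfrsf4* (OX40), *Tnfrsf18* (GITR), *Tnfrsf9* (4-1BB), *Cd27*, *Tnfrsf1b* (TNFR2), *Tnfrsf1a* (TNFR1) and *Fas*. They were taken by symbol from a table of 55335 genes, and all 8 were found and passed the filter on low counts that left 15378 genes for testing. RNA was sequenced from TILs (lymphocytes that infiltrate a tumor), sorted as CD8+CD44+PD-1+ cells from tumors of MC38, a mouse colon carcinoma line, grown in C57BL/6 mice. The 4 wildtype (WT) samples, S1 to S4, came from Lsd1f/f mice, in which the *Lsd1* gene (*Kdm1a*) carries loxP sites but stays intact. The 4 knockout (KO) samples, S5 to S8, came from Cd4-Cre+Lsd1f/f mice, in which Cre recombinase under control of the *Cd4* gene deletes *Lsd1* in developing T cells, so that CD4+ T cells of the same mice lacked it too. Each WT sample pooled the cells of 2 mice and each KO sample held the cells of 1 mouse. Between 10000 and 20000 cells were sorted for each. The sample protocol gives day 18 after implantation and the series design text gives day 14. By the study's methods, all experiments used young mice.

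TNF superfamily receptors are membrane proteins that cluster when they bind a trimeric ligand, usually carried on another cell. CD30, OX40, GITR, 4-1BB, CD27 and TNFR2 recruit TRAF adaptors, activate NF-κB and act as costimulators of T cells, and most of them are raised when a T cell sees its antigen. TNFR1 and FAS carry a death domain, through which they can also start apoptosis or necroptosis. The comparison asks how these receptor transcripts differ in PD-1+ CD8+ TILs without LSD1, a histone demethylase that works in a repressor complex.

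*Tnfrsf8* and *Fas* were higher in KO than in WT TILs, by 16.6-fold and 2.28-fold of the mean CPM (counts scaled by each library's total and TMM factor). *Tnfrsf4* and *Tnfrsf18* were lower in KO TILs, with WT means 2.03-fold and 1.56-fold those of KO. *Cd27*, *Tnfrsf1b*, *Tnfrsf9* and *Tnfrsf1a* did not pass the test. The call rule asked for more than a 1.5-fold difference and, in edgeR's quasi-likelihood test, an adjusted p below 0.01. By this rule 4 of the 8 receptors were called, against 4.9% of all genes tested. Of these, 2 were called higher, against 2.91% of all genes, and 2 lower, against 1.99%. The CPM of WT and KO samples did not overlap for 6 of the 8, against 17.3% of all genes tested. The median log2 fold change was 0.04 over the 8 receptors and -0.01 over all genes.

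The promoter windows of the 4 called receptors are shown as the sequences around annotated starts of these genes. Where their transcripts start in these cells was not measured. Each window is RefSeq sequence of GRCm38.p6 from 250 bases before to 50 bases after an annotated start, written 5′ to 3′ along the gene's strand. Capitals mark matches on either strand to the core of TCF/LEF sites (CTTTGA or CTTTGT), to AP-1 sites (TGANTCA) or to the κB consensus. The windows are chr4:145315115-145315414 (minus strand) for *Tnfrsf8*, chr19:34290409-34290708 (plus) for *Fas*, chr4:156013445-156013744 (plus) for *Tnfrsf4* and chr4:156026072-156026371 (plus) for *Tnfrsf18*. The window of *Tnfrsf4* follows a RefSeq start that lies before the GENCODE start of that gene, and overlaps the end of *Sdf4*.
Tnfrsf8: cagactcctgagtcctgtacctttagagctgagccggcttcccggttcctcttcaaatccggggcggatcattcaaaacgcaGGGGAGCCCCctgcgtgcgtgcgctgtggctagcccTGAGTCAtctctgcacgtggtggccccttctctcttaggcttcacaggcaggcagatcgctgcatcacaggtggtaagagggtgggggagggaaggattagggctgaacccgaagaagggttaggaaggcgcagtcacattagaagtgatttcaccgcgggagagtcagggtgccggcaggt
Fas: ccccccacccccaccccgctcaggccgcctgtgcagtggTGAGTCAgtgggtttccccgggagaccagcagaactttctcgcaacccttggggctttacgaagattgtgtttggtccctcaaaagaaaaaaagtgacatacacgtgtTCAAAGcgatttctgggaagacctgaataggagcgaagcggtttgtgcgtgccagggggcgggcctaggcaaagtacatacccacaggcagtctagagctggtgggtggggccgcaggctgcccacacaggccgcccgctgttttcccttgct
Tnfrsf4: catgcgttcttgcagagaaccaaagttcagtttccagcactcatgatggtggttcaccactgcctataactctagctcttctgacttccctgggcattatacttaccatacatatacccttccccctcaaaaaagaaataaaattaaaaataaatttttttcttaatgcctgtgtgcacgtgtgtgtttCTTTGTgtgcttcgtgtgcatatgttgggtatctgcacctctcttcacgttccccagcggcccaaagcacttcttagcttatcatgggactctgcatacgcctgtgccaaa
Tnfrsf18: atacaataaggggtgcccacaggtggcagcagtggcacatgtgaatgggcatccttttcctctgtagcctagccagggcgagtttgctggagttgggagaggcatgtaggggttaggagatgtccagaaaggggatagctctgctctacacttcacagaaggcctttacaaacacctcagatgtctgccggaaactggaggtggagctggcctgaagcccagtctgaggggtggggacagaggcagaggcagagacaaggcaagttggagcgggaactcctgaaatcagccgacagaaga

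All 8 receptors had a window, 9 in all because *Tnfrsf9* has a window at each of 2 starts. The *Tnfrsf8* window held a κB match that begins 168 bases before the start and an AP-1 match that begins 132 bases before it. The *Fas* window held an AP-1 match and a TCF/LEF match, at 211 and 103 bases before the start. The *Tnfrsf4* window held a TCF/LEF match at 61 bases before its RefSeq start, and the *Tnfrsf18* window held no match. No matches overlapped each other in these 4 windows. Of the receptors not called, *Tnfrsf9* had TCF/LEF, κB and AP-1 matches over its windows. The windows of *Cd27* and *Tnfrsf1a* held TCF/LEF matches and that of *Tnfrsf1b* held none, so matches were not particular to the called receptors. Among 32851 windows of the same length, 31.2% held a TCF/LEF match, 4.5% a κB match and 7.8% an AP-1 match, whereas 5, 2 and 3 of the 9 receptor windows did. A looser spelling of the κB site, which fixed only its outer G and C bases and was searched first, was in 50.8% of all windows and in 6 of the 9, and was set aside for being so frequent. The windows of *Tnfrsf8* and *Fas*, the receptors called higher, had 15 and 14 CG dinucleotides, and those of *Tnfrsf4* and *Tnfrsf18* had 6 and 4, against a median of 7 over all windows. Among the receptors that were not called, *Tnfrsf1b* had 13, *Tnfrsf1a* 11, *Cd27* 7 and the windows of *Tnfrsf9* 4 and 6, so high counts were not particular to the receptors called higher. These matches are letters in a window, and no binding was measured.

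Sample totals lay between 11657807 and 30295406 counts, and 3 counts correspond to 0.105 to 0.25 CPM. The targeted gene, *Kdm1a*, had a mean of 44.9 CPM (SD 1.87, n = 4) in WT samples and 30.6 CPM (SD 4.03, n = 4) in KO samples, with ranges of 42.7 to 47.2 and 25.2 to 34.8 CPM, and its adjusted p of 0.0163 from edgeR missed the threshold. These counts cover the whole gene and do not show which exons were lost. By flow cytometry, the study saw LSD1 protein fall in mice of the KO genotype from thymocytes with only CD4 or only CD8 onward. Markers of CD8 T cells summed to 3174 to 3814 CPM in WT and 2857 to 3621 CPM in KO samples. Of these 7 markers, 1 was called higher and 0 lower. The 1 called was *Cd44*, at 399 to 488 CPM in WT and 670 to 952 CPM in KO. *Cd8a*, *Cd8b1*, *Cd3e*, *Cd3g* and *Pdcd1* had log2 fold changes of -0.27, -0.39, -0.26, -0.36 and -0.33, and *Cd3d* of 0.02, and these were not called. Of 17 myeloid markers, 12 were called lower in KO, and their sum was 446 to 1319 CPM in WT against 232 to 324 CPM in KO. *Cd4* was at 1.86 to 6.87 CPM in WT and 7.26 to 26.2 CPM in KO, and *Foxp3*, which marks regulatory T cells, at 0.408 to 2.47 and 1.34 to 4.07 CPM. All 4 markers of CD4 and regulatory T cells, of which *Ikzf2* gave most of the CPM, summed to 313 to 381 CPM in WT and 252 to 377 CPM in KO. The 4 B cell markers summed to at most 4.66 CPM in any sample. The 2 NK cell markers summed to 0 to 1.32 CPM in WT and 2.32 to 6.5 CPM in KO. The 4 endothelial and fibroblast markers summed to 21.4 to 30.9 CPM in WT and 56.2 to 78.4 CPM in KO, and nearly all of this was *Pecam1*, which was called higher, at 20.3 to 26.3 CPM in WT and 56.2 to 77.0 CPM in KO. The other members of that list were not called or not tested, with *Kdr* at 9 counts in S1 and 0 elsewhere, *Col1a1* at a log2 fold change of -0.70 (adjusted p = 0.742 from edgeR) and *Col3a1* at most at 3.59 CPM in WT and 0.853 CPM in KO. The 4 epithelial markers summed to at most 1.34 CPM, with *Krt8* and *Krt19* at 0 in every sample. The sort also gated on CD45.2, which marks leukocytes, and on TCRβ, which marks αβ T cells, so that B cells, NK cells, myeloid cells, endothelial cells, fibroblasts and tumor cells lay outside the gate. Several TNF receptors are also made by such cells, and the part of any that passed the sort in the values below was not tested. Fewer cells of a type and less RNA per cell cannot be told apart in these bulk samples.

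**Figure D1:**
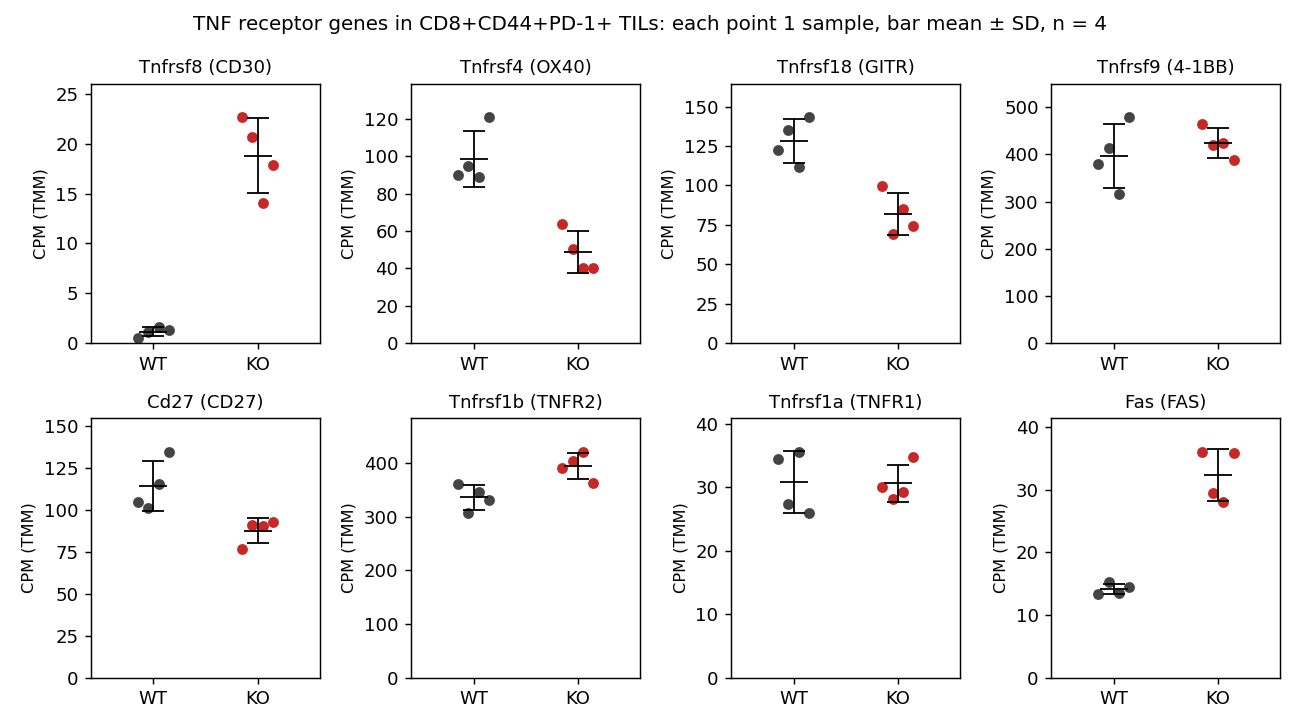
CPM of the 8 receptor genes in WT and KO samples, with a panel and a linear axis from 0 for each gene. Each point is 1 sample, and the bars are the mean ± SD (n = 4). The groups do not overlap for *Tnfrsf8*, *Tnfrsf4*, *Tnfrsf18*, *Cd27*, *Tnfrsf1b* and *Fas*, and they overlap for *Tnfrsf9* and *Tnfrsf1a*.

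*Tnfrsf8* encodes CD30, a costimulatory receptor found on activated T cells and used as a marker of Hodgkin lymphoma. Its CPM in the WT samples S1 to S4 was 0.523, 1.14, 1.55 and 1.32, and in the KO samples S5 to S8 it was 22.6, 20.7, 14.0 and 17.9. Every KO sample was far above every WT sample, and the WT values rested on 9, 21, 19 and 16 counts against 345, 256, 168 and 509 counts in KO. In edgeR this was a log2 fold change of 4.07 with a standard error of 0.33 and an adjusted p of 4.77e-07. It stayed called in all 19 alternatives, between 3.82 and 4.25. In KO, *Tnfrsf8* was at 18.8 ± 3.74 CPM (SD, n = 4). Of the 4 markers of CD4 and regulatory T cells, 0 were called. *Cd4*, *Foxp3* and *Ccr4* had log2 fold changes of 1.65, 1.14 and 0.97, and *Ikzf2* of -0.26. The sum of the 4, given above, overlapped between WT and KO. The part of such cells in the *Tnfrsf8* value was not tested.

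*Fas* encodes the death receptor that binds FAS ligand and can trigger apoptosis of activated T cells. It was at 13.4, 15.2, 13.5 and 14.4 CPM in S1 to S4 and at 36.0, 29.5, 28 and 35.8 CPM in S5 to S8. The WT samples lay close together and all 4 KO samples were above them. The difference was 1.19 ± 0.16 (SE) on the log2 scale with an edgeR adjusted p of 0.000122, and it was called in all 19 alternatives, between 1.14 and 1.26.

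*Tnfrsf4* encodes OX40, a costimulator of T cell survival and memory that is also high on regulatory T cells. WT samples S1 to S4 had 89.8, 95.1, 88.8 and 121 CPM of it, and KO samples S5 to S8 had 63.9, 50.3, 40.0 and 40.3 CPM. The highest KO sample, S5, was below the lowest WT sample, S3. On the log2 scale the change was -1.02 ± 0.15 (SE), with an edgeR adjusted p of 0.00031. It was lost only when the test asked for a change larger than 1.5-fold (glmTreat, adjusted p = 0.042).

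*Tnfrsf18* encodes GITR, a costimulator whose gene lies next to *Tnfrsf4*. It was at 123, 135, 111 and 143 CPM in S1 to S4 and at 99.5, 68.9, 85.2 and 74.0 CPM in S5 to S8. No KO sample reached the lowest WT sample, and S5 came nearest. Its log2 change of -0.65 ± 0.13 (SE) had an edgeR adjusted p of 0.00257 and was a 1.56-fold difference just past the fold threshold. The call was lost without S2, S4 or S6 (edgeR adjusted p = 0.0125, 0.0126 and 0.0123), with GC content offsets (log2 fold change -0.57) and with glmTreat (adjusted p = 0.984). The antisense gene *Gm16008* shares 414 exon bases with *Tnfrsf18* and held 1.18% as many counts. Whether the counting used strand is not given, so how reads in the shared bases were counted is not known.

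*Cd27*, a costimulator of memory and progenitor T cells that binds CD70, was at 105, 101, 115 and 134 CPM in S1 to S4 and at 76.6, 91.2, 90.4 and 92.6 CPM in S5 to S8. Every KO sample was lower than every WT sample, and S5 was the lowest. The log2 change of -0.38 ± 0.11 (SE), with an edgeR adjusted p of 0.0426, passed neither threshold. Its approximate 95% interval was -0.60 to -0.15. The span of *Cd27* overlaps *Vamp1* on the other strand, which held 42.5% as many counts but shares no exon base with it. *Mir8113*, on the same strand as *Cd27*, shares 129 exon bases with it and held 0 counts.

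*Tnfrsf1b* encodes TNFR2, the TNF receptor without a death domain. It was at 362, 307, 346 and 331 CPM in S1 to S4 and at 392, 405, 421 and 364 CPM in S5 to S8. The groups did not overlap, but S1 and S8 nearly met. The log2 change was 0.23 ± 0.09 (SE), with an edgeR adjusted p of 0.115 and a 95% interval of 0.05 to 0.41. *Tnfrsf1a*, which encodes the death domain receptor TNFR1, was at 34.4, 27.4, 35.5 and 26.0 CPM in S1 to S4 and at 30.1, 28.2, 29.3 and 34.7 CPM in S5 to S8. The KO values of *Tnfrsf1a* fell within the WT range, and its log2 fold change of -0.01 (adjusted p = 0.984 from edgeR) had an interval of -0.32 to 0.30.

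*Tnfrsf9* encodes 4-1BB, a costimulator induced on antigen-stimulated CD8 T cells. It was at 379, 413, 316 and 478 CPM in S1 to S4 and at 465, 419, 424 and 388 CPM in S5 to S8. All KO samples lay within the WT range. Its log2 change of 0.10 ± 0.11 (SE), with an edgeR adjusted p of 0.679, had an interval of -0.13 to 0.32, so that a rise of more than 1.5-fold lay outside it.

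**Figure D2:**
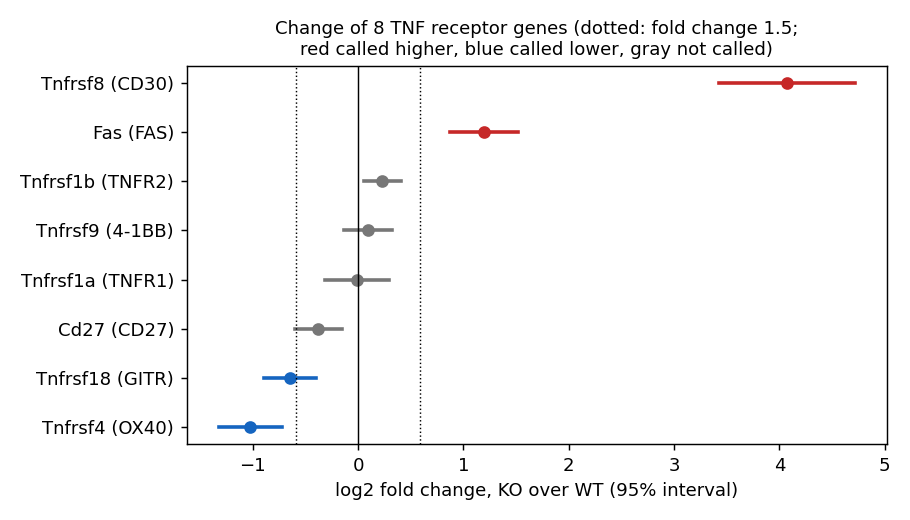
Log2 fold change (KO over WT) of each receptor on the x axis, as a point with its approximate 95% interval, with dotted lines at a fold change of 1.5. *Tnfrsf8* at 4.07 and *Fas* at 1.19 were called higher, *Tnfrsf18* at -0.65 and *Tnfrsf4* at -1.02 were called lower, and the interval of *Tnfrsf18* crosses the lower dotted line.

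Whether one receptor changed more than another was tested on the ratio of each pair within a sample, by exact permutation (two-sided) of the 8 samples in their 70 possible arrangements, which cannot go below p = 0.0286. Of 28 pairs, 20 reached that limit, with a p of 0.04 adjusted over the pairs, and 8 were not under 0.05. *Tnfrsf8* rose relative to each of the other 7 receptors, by 2.79 on the log2 scale relative to *Fas* and by 5.01 relative to *Tnfrsf4*. *Fas* rose by 1.18 relative to *Tnfrsf1a*, the other death domain receptor (exact permutation test, p = 0.0286). The change of *Tnfrsf4* relative to its neighbor *Tnfrsf18* was -0.38 on the log2 scale and did not pass (exact permutation test, p = 0.0571, adjusted 0.0695). The ratio of *Tnfrsf1b* to *Tnfrsf1a* in RPKM was 7.13, 7.62, 6.62 and 8.65 in the WT samples, against 8.85, 9.74, 9.75 and 7.11 in the KO samples. These ratios overlapped between the groups (exact permutation test, p = 0.1429, adjusted 0.16).

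Levels were compared between receptors per exon length, as RPKM (CPM per kilobase of exon). In WT TILs *Tnfrsf9* was the most abundant at 146 ± 24.9 RPKM (SD, n = 4), above *Tnfrsf1b* at 88.2 ± 6.07, *Tnfrsf18* at 84.1 ± 9.14 and *Tnfrsf4* at 72.3 ± 11.1. *Tnfrsf1b* overlapped *Tnfrsf18* in range, and *Tnfrsf18* overlapped *Tnfrsf4*, although *Tnfrsf18* was above *Tnfrsf4* in all 4 samples. *Cd27* followed at 48.9 ± 6.4 RPKM, *Tnfrsf1a* at 11.9 ± 1.87, *Fas* at 6.86 ± 0.41 and *Tnfrsf8* at 0.328 ± 0.13, each below the range of the one before. In KO TILs the order was *Tnfrsf9* at 156 ± 11.6 RPKM (SD, n = 4), *Tnfrsf1b* at 104 ± 6.28, *Tnfrsf18* at 53.7 ± 8.89, *Cd27* at 37.7 ± 3.2, *Tnfrsf4* at 35.6 ± 8.23, *Fas* at 15.7 ± 2.02, *Tnfrsf1a* at 11.8 ± 1.11 and *Tnfrsf8* at 5.44 ± 1.08. Only *Cd27* and *Tnfrsf4* overlapped as neighbors in that order, and *Fas* now stood above *Tnfrsf1a*. The most abundant receptor was 444 times the least abundant in WT and 28.6 times in KO.

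The summed RPKM of the 8 receptors was 458 ± 44.3 (SD, n = 4) in WT and 419 ± 26.0 (n = 4) in KO, and the groups were not told apart (exact two-sided permutation test, p = 0.2286). The make-up of that sum differed, with exact permutation tests adjusted over the 8 receptors. *Tnfrsf4* fell from 15.7% to 8.45% of the sum and *Tnfrsf18* from 18.3% to 12.8%, while *Tnfrsf9* rose from 31.6% to 37.1% and *Tnfrsf1b* from 19.4% to 24.7%. *Fas* rose from 1.5% to 3.74% and *Tnfrsf8* from 0.0721% to 1.30%. Each of these 6 had p = 0.0286 (0.0381 adjusted, exact permutation test) and no overlap between the groups. *Cd27* at 10.7% and 9.04% (adjusted p = 0.0979) and *Tnfrsf1a* at 2.64% and 2.83% (adjusted p = 0.6) did not pass the exact permutation test. The shares of a sample add up to all of its receptor RNA, so they do not move independently, and *Tnfrsf9* and *Tnfrsf1b* were not called as levels in edgeR.

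**Figure D3:**
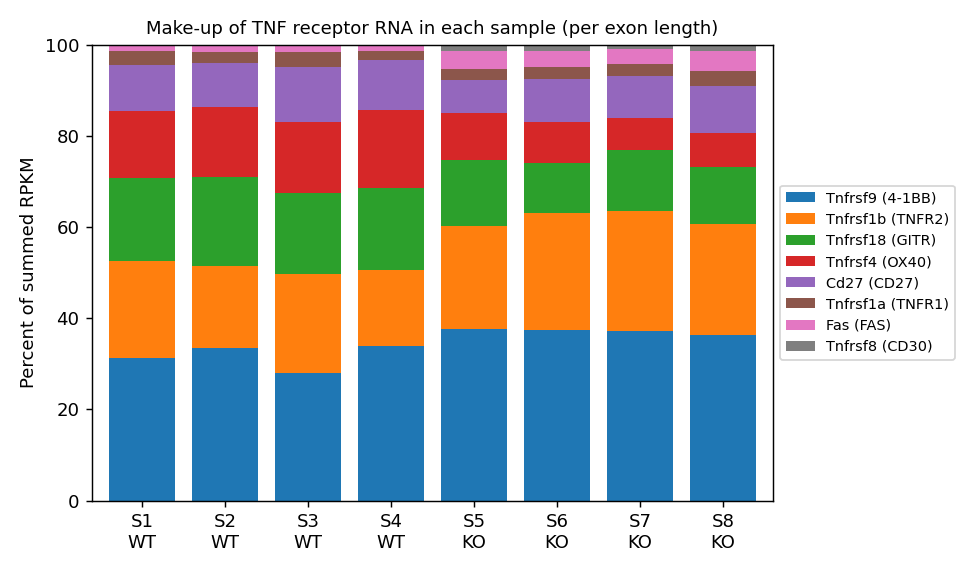
Percent of the summed RPKM that each receptor held, stacked in 1 bar per sample (S1 to S4 WT, S5 to S8 KO). *Tnfrsf4* and *Tnfrsf18* together take a smaller part of each KO bar, and *Tnfrsf8*, at 0.0721% of the sum on average in WT, is visible only in the KO bars at 1.30%.

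Of 18 ligand genes of the family, 13 were tested, and 5 were called higher and 1 lower. Over all genes tested, 2.91% were called higher and 1.99% lower. The median log2 fold change was 0.27 for the ligands against -0.01 over all genes tested. This list and those below were chosen with earlier results of these data known. *Cd40lg*, which encodes the CD40 ligand known from helper T cells, was at 1.90 to 3.02 CPM in WT and 7.93 to 18.4 CPM in KO (log2 fold change 2.42, adjusted p = 0.000126 from edgeR). *Cd4* moved the same way, at 1.86 to 6.87 CPM in WT and 7.26 to 26.2 CPM in KO, though it was not called. *Ikzf2*, on the same list of 4 markers, moved the other way (log2 fold change -0.26, adjusted p = 0.218 from edgeR). The sum of that list overlapped between WT and KO. The part of CD4+ T cells in the *Cd40lg* value was not tested. *Tnf* and *Lta*, the ligands of TNFR1 and TNFR2, had log2 fold changes of 1.22 and 1.27, while their receptors did not pass. *Tnfsf9*, the 4-1BB ligand, was at 13.8 to 17.1 CPM in WT and 23.0 to 32.4 CPM in KO (0.88, adjusted p = 0.00282), whereas 4-1BB itself stayed within the WT range. *Tnfsf14* (LIGHT) was also called higher (0.80, adjusted p = 0.00355). *Tnfsf4*, the OX40 ligand, was called lower together with OX40, at 20.04 to 33.0 CPM in WT and 7.51 to 14.2 CPM in KO (-1.13, adjusted p = 0.00326). The sum of myeloid markers given above was also lower in KO, and the part of such cells in the *Tnfsf4* value was not tested. *Fasl*, the FAS ligand, was at 106 to 138 CPM in WT and 118 to 161 CPM in KO (0.27, adjusted p = 0.157). *Tnfsf8*, the CD30 ligand, had a log2 fold change of -0.68 (adjusted p = 0.197) and *Cd70* of -0.78 (adjusted p = 0.61), and *Tnfsf18*, the GITR ligand, had 2 counts in all and fell under the filter. *Tnf*, *Lta* and *Cd40lg* were called in all 19 alternatives, and *Tnfsf9*, *Tnfsf14* and *Tnfsf4* in 15 each. With glmTreat, or without S7, *Tnf*, *Lta* and *Cd40lg* were the 3 ligands called higher and none was called lower. Without S1, S2, S3 or S4, 4 ligands were called higher, and *Tnfsf4* was also lost without S2 or S3.

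**Figure D4:**
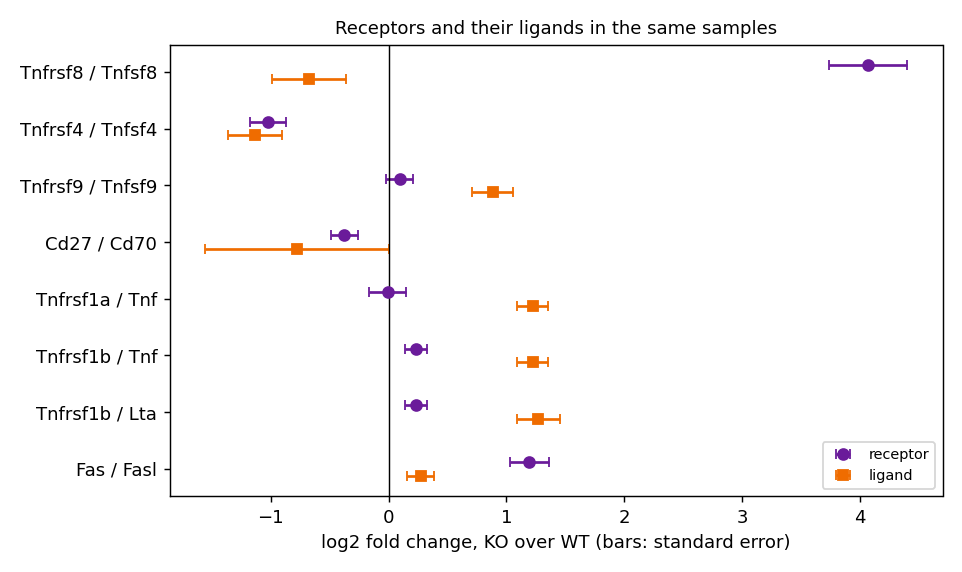
Log2 fold change (KO over WT) with its standard error of receptors (circles) and their ligands (squares) on the x axis, with 1 row per receptor and ligand pair. CD30 rose without its ligand passing the test, OX40 and its ligand both fell, and *Tnf*, *Lta* and *Tnfsf9* rose without their receptors passing.

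Of 20 other receptor genes of the family, 13 were tested, 1 was called higher and 1 lower, with a median log2 fold change of 0.17. The shares over all genes tested were 2.91% higher and 1.99% lower. *Tnfrsf13b* (TACI), a receptor best known from B cells, was at 8.43 to 11.2 CPM in WT and 14.0 to 25.3 CPM in KO (log2 fold change 1.02, adjusted p = 0.00506 from edgeR). *Tnfrsf11a* (RANK), a receptor of osteoclast precursors and other myeloid cells, was at 2.78 to 8.89 CPM in WT, at 0.788 CPM in S5 and at 0 in S6 to S8 (adjusted p = 0.00579). The myeloid marker sum moved the same way as *Tnfrsf11a*, and its part was not tested. Both calls changed with the fit. *Tnfrsf13b* was called in 11 and *Tnfrsf11a* in 10 of 19 alternatives, and leaving out any 1 sample but S7 took away *Tnfrsf13b*. Leaving out S2, S3, S4, S6, S7 or S8 left no receptor on this list called lower. *Tnfrsf22*, *Tnfrsf23* and *Tnfrsf26* are related genes of a cluster, so their counts may be uncertain, which was not tested.

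Of 23 genes of adaptors and death machinery, 1 was called higher and none lower, against 2.91% and 1.99% of all genes tested. Their median log2 fold change was 0.00. *Traf5*, an adaptor that binds CD27, CD30 and OX40, was at 29.6 to 33.5 CPM in WT and 39.8 to 69.3 CPM in KO (0.81, adjusted p = 0.00276 from edgeR). It was called in 17 of 19 alternatives, not without S2 or with glmTreat. Of 16 genes of NF-κB signaling, 0 were called by edgeR or by DESeq2, against 4.9% of all genes tested with edgeR. In edgeR 4 of the 16 had an unadjusted p under 0.05, and the median was -0.17. Among them *Rel*, chosen after its values were seen, had an adjusted p of 0.00813 from edgeR and a log2 fold change of 0.45, under the fold threshold.

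By position in GRCm38, *Tnfrsf8* (chromosome 4, 145267137 to 145315164) and *Tnfrsf1b* (145213463 to 145246870) lie 20.3 kb apart, and *Tnfrsf4* (156013843 to 156016612) and *Tnfrsf18* (156026164 to 156028895) lie 9.6 kb apart on the same chromosome. *Tnfrsf8* and *Tnfrsf1b* differed in their change, by 3.74 on the log2 scale (exact permutation test, p = 0.0286, adjusted 0.04). *Vps13d*, the other tested gene within 100 kb of *Tnfrsf8*, had a log2 fold change of 0.36 (adjusted p = 0.0939 from edgeR). Around *Tnfrsf4*, *Sdf4* ends 0.2 kb before the gene and had a log2 fold change of -0.35 (adjusted p = 0.0493 from edgeR). *C1qtnf12*, 47.2 kb away, was called lower (-1.27, adjusted p = 0.00805). Over all 23 tested genes within 100 kb of a receptor, the receptors left out, 0 were called higher and 1 lower. The shares over all genes tested were 2.91% and 1.99%. Their median was -0.33 for these neighbors, against -0.01 over all genes tested, and this difference was not tested.

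**Figure D5:**
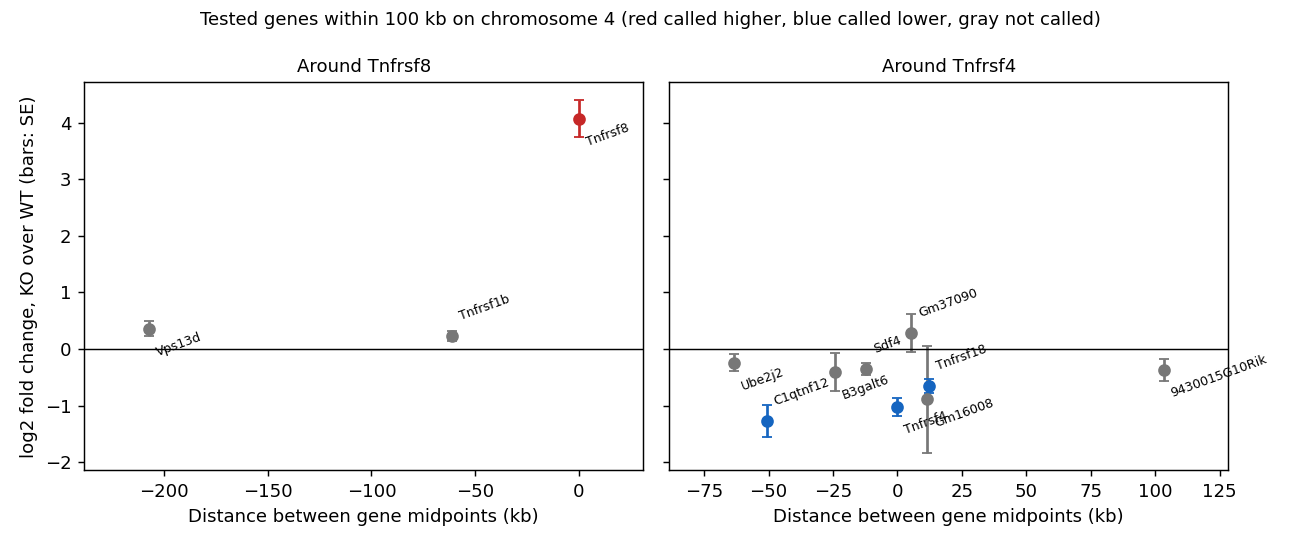
Log2 fold change (KO over WT, bars are the standard error) of tested genes within 100 kb of *Tnfrsf8* (left) and *Tnfrsf4* (right), against the distance between gene midpoints in kb. *Tnfrsf8* stands alone at 4.07 on the left, and on the right *Tnfrsf4*, *Tnfrsf18* and *C1qtnf12* were called lower.

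The genes most like each receptor were those with the highest Pearson correlation of log2 CPM over the 8 samples, given as a description, since 15378 genes were searched and the samples share the group difference. *Arhgef11* (r = 0.99, and 0.91 within groups), *Fam129b* and *Ctnna1* were most like *Tnfrsf8*, and *Trat1* (r = 0.99, and 0.80 within groups), *Tle1* and *Cpm* were most like *Fas*. *Irf8* (r = 0.99, and 0.92 within groups), *Coq8a* and *Palb2* were most like *Tnfrsf4*, and *Zmiz2* (r = 0.99, and 0.96 within groups), *Pglyrp1* and *Mogs* were most like *Tnfrsf18*. The nearest were *Cnih2*, *Hk1* and *Strada* for *Tnfrsf9*, *Zbtb12*, *Cdk4* and *Lsm6* for *Cd27*, *Ovol2*, *Slc5a5* and *Rbm5* for *Tnfrsf1b*, and *Inpp5d*, *Rcbtb2* and *Med26* for *Tnfrsf1a*.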

How the data were processed

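RNA-seq was made from 4 WT and 4 KO samples with rRNA-depleted, directional libraries. The authors aligned reads with STAR to GRCm38, counted them per gene with featureCounts and deposited raw counts without normalization. Whether the counting used strand is not given in the sources used here. Columns were assigned to groups by the key of the study's PCA plot and could not be matched to replicate numbers.

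Counts were filtered with filterByExpr, scaled with TMM factors (0.94 to 1.046) and compared with the quasi-likelihood test of edgeR 4.0.16 in R 4.3.3, with Benjamini-Hochberg adjustment over 15378 genes. Calls needed more than a 1.5-fold difference and an adjusted p below 0.01. Each standard error is the size of the log2 change divided by the root of the test's F, and intervals are 1.96 standard errors to each side. Ratios, shares and sums were compared with exact permutation tests, ratios as differences of log2 CPM (prior count 2). RPKM used GENCODE M21 exon lengths (55154 of 55335 gene IDs matched). In 5 simulations the fit recovered 96.4% of genes changed 4-fold and 65.6% of those changed 2-fold, with 2 to 4 false calls among at least 14720 genes. The changed genes were drawn only from genes with higher expected counts, so recovery at low counts was not simulated.

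The receptors, gene lists and markers were chosen with earlier results of these data known. Promoter windows and their motifs were added after the receptors' values were seen. All 8 receptors, the ligands of the 8, the called genes of each list and the 3 genes most like each receptor are named, as are *Kdm1a*, and, chosen after their values were seen, *Rel* and the neighboring and overlapping genes. Samples of a group differed by more than sampling noise. Floors cover counting error only. Alternatives were other scalings, filters, tests (DESeq2 1.42.0 among them), thresholds, a GC content correction (mgcv 1.9.3), a restriction to protein-coding genes, and fits without each sample in turn. The alternative of an adjusted p under 0.05 used the main fit at a looser threshold, so every call passes it.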

Additional observations from a re-analysis of the deposited data

Results flagged for a closer look

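*Cd27* in KO sample S5 lay apart from the other KO samples, at 6.26 log2 CPM against 6.50 to 6.54. The gap to the nearest sample was 0.870 of the range of the group, above Dixon's 95% critical value for 4 samples. Of 24 groups looked at in this way 1 stood out, and 1.2 are expected by chance at 1 in 20. Without any 1 sample *Cd27* stayed uncalled, with a log2 fold change between -0.43 and -0.29.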

How the results depend on the processing

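*Tnfrsf8* and *Fas* were called higher under all 19 alternatives. With glmTreat against a fold change of 1.5, 165 genes were higher and 130 lower, and 0 receptors were lower, *Tnfrsf4* (log2 fold change -1.02) and *Tnfrsf18* (-0.65) both losing their call. GC content offsets left 1 receptor lower, with *Tnfrsf18* at -0.57 and *Tnfrsf1a* at 0.061, a change of sign in a value that was never called. The number of genes lower, 306, became 531 without the filter, 510 with DESeq2, 481 with the likelihood ratio test and 551 at an adjusted p under 0.05, where 695 genes were higher against 447. Leaving out 1 sample gave 199 (without S2) to 303 genes lower, 1 to 2 receptors lower, *Tnfrsf18* between -0.75 and -0.57 and *Tnfrsf1a* between -0.081 and 0.064. The cause of these changes was not tested. *Tnfrsf8* in WT rested on 9 to 21 counts per sample, which limits the precision of its fold change. No paired analysis was possible because the columns could not be matched to replicate numbers, so fits with a replicate block were not run. The sources used here do not state that equal replicate numbers in WT and KO mark pairs of samples.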
